A study of Mus musculus with 12 samples.

Results

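A set of 10 genes that mark or arm CD4 and CD8 T cells was followed through pancreatic islets of mice given an antibody against CD3 or a control IgG. They were chosen by name: the co-receptors Cd4, Cd8a and Cd8b1, the granule proteins Gzmb, Gzma and Prf1, and Nkg7, Ctsw, Ccl5 and Il2rb. All 10 were found among the 13703 genes of the authors' comparison table, which was drawn from 49315 genes counted. The libraries measured polyadenylated RNA of whole islets from wild-type NOD/ShiLtJ females, a strain in which lymphocytes enter the islets and destroy beta cells. Mice with normal glucose entered at 9 weeks of age and were dosed weekly for 4 weeks, with 2.5 mg/kg of anti-CD3 or with control IgG, and islets were collected 2 to 3 days after dosing ended, for 6 anti-CD3 and 6 IgG libraries. The labels do not say whether a library was 1 mouse or a pool, so p-values measure only the spread between these samples.

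T cells recognise antigen through a receptor that signals through CD3 chains, among them CD3 epsilon, encoded by Cd3e. CD4 binds MHC class II and marks helper cells, while CD8, usually a pair of alpha and beta chains, binds MHC class I and marks cytotoxic cells. A cytotoxic cell kills by releasing granules, from which perforin opens the target membrane and granzymes enter and cleave proteins. In the NOD strain both lineages take part in the loss of beta cells, and CD8 cells can kill them directly.

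Total counts ran from 10994337 to 19284740 in anti-CD3 libraries and from 11891132 to 17628347 in IgG libraries. Islet hormone transcripts were abundant, with Ins2, the insulin 2 gene, at a median of 128434 normalized counts in anti-CD3 and 105443 in IgG. Exocrine RNA was more abundant still. Of 12 acinar genes, the summed share of counts was 53.9% to 57.6% in anti-CD3 and 25.7% to 57.2% in IgG, with IgG 5 at 43.9% and IgG 6 at 25.7%. IgG 6 stood apart from the other libraries in the genes described here, and values without it stand beside the members' fold changes. In bulk RNA, fewer T cells and less RNA per T cell cannot be told apart.

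The promoters of Gzmb, Gzma and Prf1 are shown because they encode the granule proteins that kill the target cell. Each line gives 250 bases upstream of the RefSeq start on GRCm38.p6, read 5′ to 3′ on the gene's strand, with matches to TGTGGT on either strand in capitals. This word is the core bound by RUNX factors, of which RUNX3 acts in CD8 T cells. Gzmb lies on the minus strand of chromosome 14 (chr14:56262335-56262584), Gzma on the minus strand of chromosome 13 (chr13:113100982-113101231) and Prf1 on the plus strand of chromosome 10 (chr10:61297586-61297835).
Gzmb: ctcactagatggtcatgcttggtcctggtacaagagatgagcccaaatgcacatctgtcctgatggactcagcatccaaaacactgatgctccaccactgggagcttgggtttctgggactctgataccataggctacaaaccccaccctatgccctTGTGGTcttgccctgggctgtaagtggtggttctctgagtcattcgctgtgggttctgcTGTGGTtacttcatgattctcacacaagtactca
Gzma: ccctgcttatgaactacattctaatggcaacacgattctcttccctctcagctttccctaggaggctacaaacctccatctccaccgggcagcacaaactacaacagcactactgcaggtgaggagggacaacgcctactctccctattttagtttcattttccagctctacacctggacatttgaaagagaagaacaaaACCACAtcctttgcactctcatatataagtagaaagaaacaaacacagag
Prf1: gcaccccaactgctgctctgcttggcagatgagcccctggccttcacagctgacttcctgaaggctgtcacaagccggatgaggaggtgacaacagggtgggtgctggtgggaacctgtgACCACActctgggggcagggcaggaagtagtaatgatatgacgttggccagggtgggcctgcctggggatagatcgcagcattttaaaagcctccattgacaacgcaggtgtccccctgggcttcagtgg

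Gzmb held 2 matches, Gzma 1 and Prf1 1. Bases shortly past the RefSeq start were found in a GENCODE transcript of the gene for Gzma but not for Gzmb and Prf1. The starts of Gzmb and Prf1 were thus not borne out by this check. By position, the Prf1 window ended at 61297835, beside a GENCODE gene start of 61297833. On the minus strand, the Gzmb window reached down to 56262335, beside a GENCODE gene end of 56262260. Of the 5 genes with a window in the table, Nkg7 also held 1 and Cd8a none, while 14.1% of 32851 windows of this length held the word. The AP-1 word TGANTCA was present in 1 of the 5, Gzmb, against 6.75% of windows. The T-box word AGGTGTGA and the STAT word TTCNNNGAA were each present in 1, Nkg7, against 1.12% and 7.02%. The ETS word AGGAAG, searched like the others on both strands, was present in Prf1 and Nkg7, against 29.5%. None of these words contains another. A match of letters is a description and not a binding site, and other windows were not used here.

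The co-receptor transcripts had lower values in anti-CD3 islets than in IgG islets, and the spread between libraries was large. Of the 10 genes, 7 had enough counts to be tested. None of these passed edgeR over all genes, where 0.0762% of the genes tested did in either direction and 0% as lower in anti-CD3. Levels are the authors' normalized counts, which are counts divided by 1 size factor per library. Cd4 (ENSMUSG00000023274, chromosome 6, 124864692 to 124888221) ran from 8.50 in anti-CD3 3, through a median of 53.3, to 110 in anti-CD3 4, against 10.1 in IgG 3, a median of 91.7 and 454 in IgG 6. The groups overlapped, with 5 of the 6 IgG libraries inside the anti-CD3 range, and IgG 6 alone held 56.5% of the summed IgG level of Cd4. Cd8a (ENSMUSG00000053977, chromosome 6, 71373427 to 71379173) ran from 2.43 in anti-CD3 3, through a median of 31.0, to 72.2 in anti-CD3 1, against 19.1 in IgG 3, a median of 74.6 and 239 in IgG 6. All 6 anti-CD3 libraries lay below the IgG median of Cd8a, and 2 of them, anti-CD3 3 and anti-CD3 5, lay below its lowest IgG library. Cd8b1, the beta chain gene, ran from 1.21 through a median of 13.03 to 19.9 in anti-CD3, against 2.25, a median of 20.8 and 107 in IgG. Here too the 6 anti-CD3 libraries lay below the IgG median, and 1, anti-CD3 3, lay below every IgG library. Cd8b1 (ENSMUSG00000053044) lies beside Cd8a on chromosome 6, at 71322788 to 71337494.

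**Figure D1:**
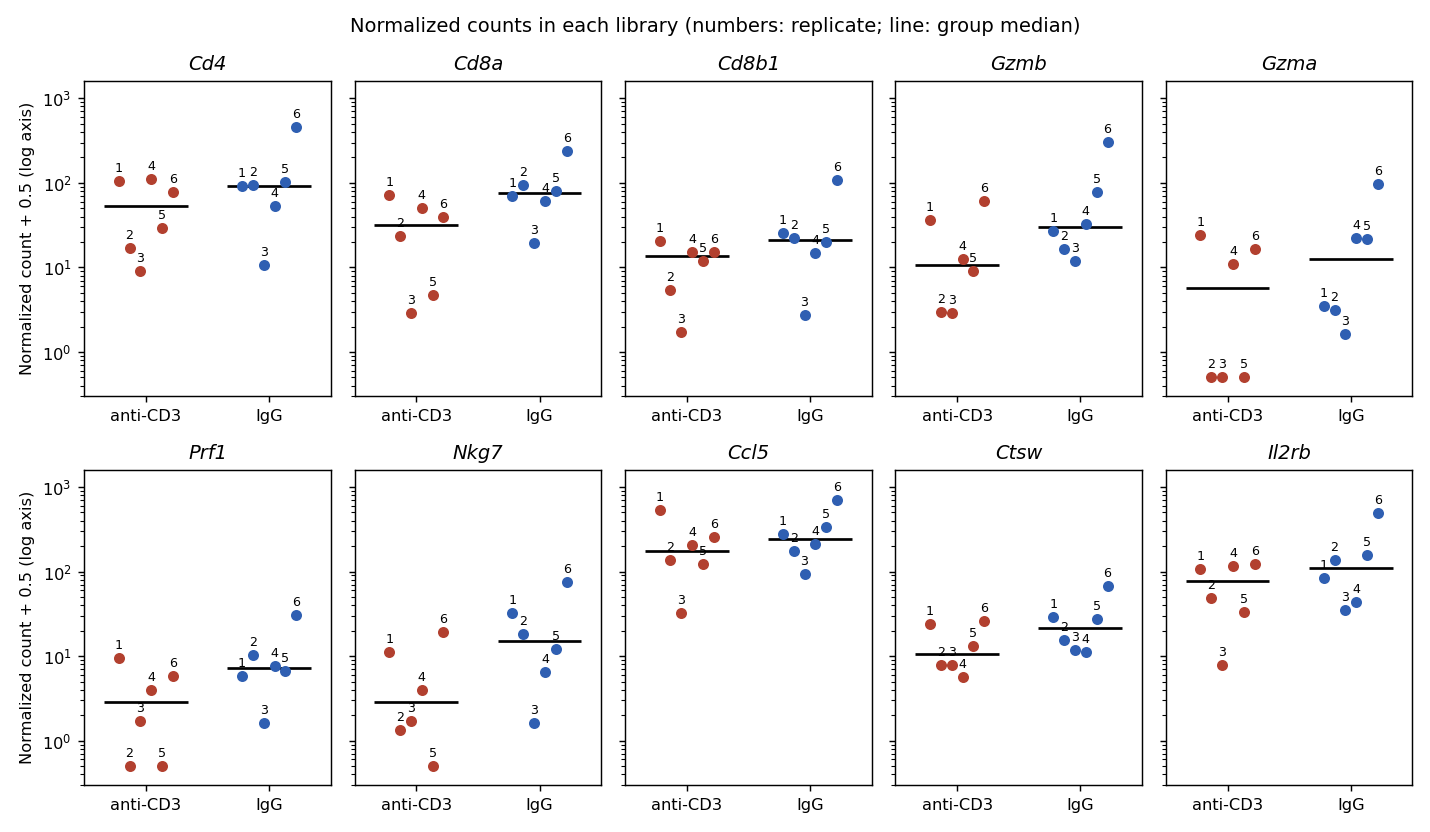
Normalized counts of the 10 genes in each library, plus 0.5, on a log axis; points are libraries numbered by replicate and lines are group medians. Anti-CD3 3 was the lowest or near the lowest library for most genes, and IgG 6 was the highest for each.

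Fold changes were estimated by edgeR's quasi-likelihood test on the deposited counts, with p-values adjusted over all 13115 genes tested. On the log2 scale, anti-CD3 over IgG, Cd8a was at -1.59 ± 0.68 and Cd8b1 at -1.58 ± 0.72 (SE, n = 6 libraries each; adjusted p = 0.245 and 0.264 by edgeR). Cd4 was at -1.24 ± 0.77 (SE; edgeR adjusted p = 0.400). Without IgG 6, the 3 values were -1.05 for Cd8a, -0.64 for Cd8b1 and -0.31 for Cd4. The log2 ratio of Cd8a to Cd4 was lower in anti-CD3, at -1.07 ± 1.03 against -0.10 ± 0.61 in IgG (SD, n = 6 each), a difference of -0.97 (exact permutation test, two-sided, p = 0.0801, adjusted p = 0.280 over 7 ratios between members). Without IgG 6 this difference was -1.13. Anti-CD3 2, at a Cd8a to Cd4 ratio of 1.39, stood above the other 5 anti-CD3 libraries, which ran from 0.165 to 0.691, while IgG ran from 0.528 to 1.85. The ratio of Cd8b1 to Cd8a, chains of 1 receptor, had a median of 0.346 in anti-CD3 and 0.248 in IgG (exact permutation p = 0.158, adjusted p = 0.369). Its highest value, 2.49 in anti-CD3 5, rested on 8 counts of Cd8b1 and 3 of Cd8a.

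The granule effectors had lower medians in anti-CD3, and their values varied widely among the libraries of both groups. Gzmb, a granzyme that cleaves after aspartate and starts apoptosis, ran from 2.43 in anti-CD3 3 through a median of 10.3 to 60.6 in anti-CD3 6, against 11.3 in IgG 3, a median of 29.4 and 306 in IgG 6. Anti-CD3 2, 3 and 5 lay below every IgG library, while anti-CD3 1 and 6 lay above the IgG median. Gzmb was at -2.02 ± 0.94 (SE; adjusted p = 0.272 by edgeR), the most negative value among the 7 members with enough counts to be tested, and at -0.75 without IgG 6 and -0.13 without IgG 5 and IgG 6. Gzma, a granzyme with trypsin-like cleavage, had no count in anti-CD3 2, 3 and 5, and 12, 12 and 13 counts in the other 3, against 1, 3 and 4 counts in IgG 3, 2 and 1, and 18, 27 and 240 in IgG 4, 5 and 6. A count of 0 allows up to 3 counts, or 2.46 to 4.26 normalized counts in those 3 libraries, a limit that covers counting error only. Its normalized level had a median of 5.19 in anti-CD3 and 12.04 in IgG. Prf1, the perforin gene, summed to 14 counts in anti-CD3, none of them in anti-CD3 2 and 5, and to 108 in IgG, 75 of them in IgG 6. Its normalized level reached 9.02 in anti-CD3, with a median of 2.34, and 29.8 in IgG, with a median of 6.72.

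Gzma, Prf1 and Nkg7 had too few counts for that test, so their values come from a fit with no filter over 30230 genes. There Gzma was at -1.63 ± 1.27, Prf1 at -1.75 ± 0.75 and Nkg7 at -2.12 ± 1.03 (SE; edgeR adjusted p = 0.552, 0.339 and 0.401). None of the 3 passed, where 0.552% of all genes in that fit did. Without IgG 6, in a fit added after the data were seen, Gzma was at -0.33, Prf1 at -0.9996 and Nkg7 at -1.33. With all libraries 1 of the 3, Prf1, was lower at an unadjusted p under 0.05, beside 6.82% of all genes. Nkg7, a protein of the granule membrane, ran from 0 in anti-CD3 5 through a median of 2.34 to 18.9 in anti-CD3 6, against 1.13 in IgG 3, a median of 14.7 and 75.0 in IgG 6. Of its 6 anti-CD3 libraries, 5 lay below the IgG median. Proportions among the granule genes, and per Cd8a, gave differences far inside the spread between libraries. The log2 ratio of Gzma to Gzmb averaged -1.998 ± 1.45 in anti-CD3 and -2.05 ± 0.88 in IgG (SD; exact permutation p = 0.933), and that of Gzmb to Prf1 2.42 ± 1.23 and 2.45 ± 1.04 (SD; exact permutation p = 0.950). Per Cd8a transcript, Gzmb was at -0.73 ± 1.54 in anti-CD3 and -0.87 ± 1.014 in IgG, and Nkg7 at -2.59 ± 1.40 in anti-CD3 and -2.45 ± 0.93 in IgG (SD; exact permutation p = 0.864 and 0.835, adjusted p = 0.950 for these 4 ratios). With SDs of this size, these tests could not show a small shift.

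Ccl5 was the most abundant member per length of transcript and had the smallest fold change. It encodes a chemokine that draws leukocytes to inflamed tissue, and it is made by T cells, NK cells and several other cell types. Per kilobase of the longest annotated transcript, its median over the 12 libraries was 312 normalized counts, and it was the highest member in 12 of 12 libraries. Cd4 followed at 27.2 and Il2rb at 22.5, with Cd4 above Il2rb in 7 libraries. Then came Cd8a at 17.5, Gzmb at 14.8, Cd8b1 at 9.95, Nkg7 at 9.55, Ctsw at 8.88 and Gzma at 6.73, and Prf1 was lowest at 2.16. Among these, neighbours changed places in at least 2 of the 12 libraries, so beyond Ccl5 the order of neighbours is not fixed. Ccl5 levels ran from 31.6 in anti-CD3 3 through a median of 172 to 527 in anti-CD3 1, against 92.3 in IgG 3, a median of 245 and 704 in IgG 6. Ccl5 was at -0.50 ± 0.57 (SE; adjusted p = 0.646 by edgeR), at -0.05 without IgG 6 and at 0.15 without IgG 5 and IgG 6.

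Ctsw and Il2rb also had overlapping groups. Ctsw, which encodes cathepsin W, a protease of CD8 and NK cells, ran from 5.19 in anti-CD3 4 through a median of 10.1 to 25.6 in anti-CD3 6, against 10.8 in IgG 4, a median of 21.1 and 66.3 in IgG 6. It was at -1.05 ± 0.52 (SE; edgeR adjusted p = 0.294) and at -0.53 without IgG 6. Il2rb, the receptor chain shared by IL-2 and IL-15, ran from 7.28 in anti-CD3 3 through a median of 77.0 to 121 in anti-CD3 6, against 34.9 in IgG 3, a median of 110 and 485 in IgG 6. It was at -1.15 ± 0.68 (SE; edgeR adjusted p = 0.383) and at -0.37 without IgG 6. Per Cd8a transcript Il2rb was higher in anti-CD3, with a log2 ratio of 1.44 ± 0.76 against 0.53 ± 0.57 in IgG (SD, n = 6 each), a difference of 0.91 (exact permutation p = 0.0281), which did not pass over the 7 ratios (adjusted p = 0.197). Without IgG 6 the difference was 1.00. Its largest value, 6.97 in anti-CD3 5, again rested on 3 counts of Cd8a.

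Over the 7 members that passed the filter, 0 passed edgeR at an adjusted p of 0.05, where 0.0762% of all genes tested did in either direction and 0% as lower in anti-CD3. At an unadjusted p under 0.05, 2 were lower, Cd8a and Cd8b1, beside 8.68% of all genes in that direction. DESeq2 gave 0 with an adjusted p under 0.05, where 4.04% of all genes passed in either direction and 1.23% as lower. It left 2 of the 7 without an adjusted p and had 3 lower at an unadjusted p, Cd8a, Cd8b1 and Gzmb, while limma-voom gave 0 and 1. The 7 values were negative, with a median of -1.24, beside a median of -0.05 over all genes and negative values in 55.2% of them. Without IgG 6 the median of the 7 was -0.53, and without IgG 5 and IgG 6 it was -0.13, with 6 of the 7 negative. In the authors' deposited table the 10 members had log2 fold changes from -2.08 for Nkg7 to -0.49 for Ccl5, and an adjusted p for 5 of them, the smallest of which was 0.121 for Cd8a. Groups that did not overlap, with anti-CD3 lower, were found for 0 of the members and 0.648% of all genes.

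**Figure D2:**
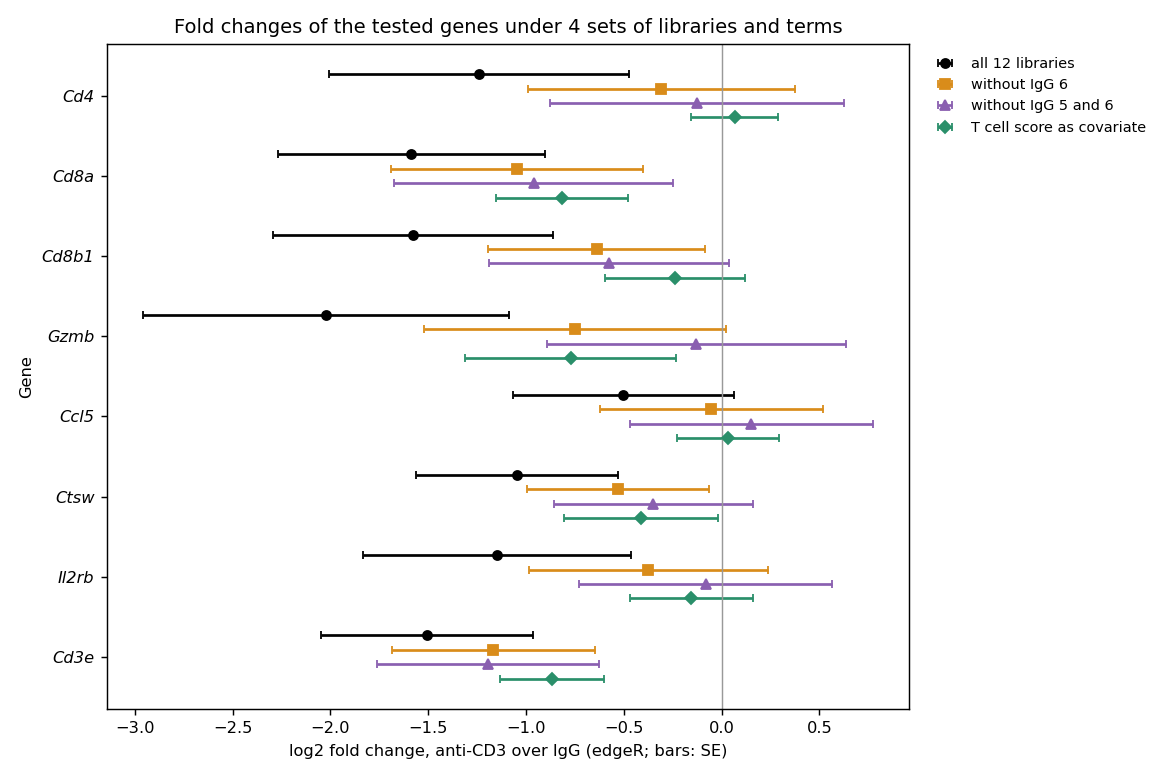
Log2 fold changes, anti-CD3 over IgG, of the 7 tested members and Cd3e from edgeR, with SE bars, for all 12 libraries, without IgG 6, without IgG 5 and IgG 6, and with the T cell score as a covariate. Gzmb was at -2.02 with all libraries and -0.13 without IgG 5 and IgG 6, and Cd8a stayed between -1.59 and -0.81 in these 4 fits.

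Most members were high and low in the same libraries, across both treatments. Raw counts of the 10 genes summed to 52 in anti-CD3 3 and to 614 in anti-CD3 4, the extremes of that group, against 164 in IgG 3 and 6456 in IgG 6. These sums are not scaled and do not compare levels. Size factors ran from 0.554 in anti-CD3 1 to 2.52 in IgG 6, with 1.16 in anti-CD3 4. The ranks that follow use normalized counts. Anti-CD3 3 was among the lowest 3 libraries for 8 members, and anti-CD3 2, anti-CD3 5 and IgG 3 for 7 each. Anti-CD3 1 ranked no lower than 6 for any member and anti-CD3 4 ranged from 2 for Cd4 to 12 for Ctsw, while IgG 5 ranked no lower than 5 and IgG 6 ranked first for 10 of 10. Each treatment thus held both low and fairly high libraries. In log2 CPM over the 12 libraries, the 3 other genes most like Cd4 were Crispld2, Arhgap25 and Ncf1, with Pearson's r of 0.99, 0.99 and 0.98. Those most like Cd8a were Sass6, Prdm1, which encodes the effector regulator Blimp-1, and Col15a1, a collagen gene, with r of 0.97, 0.97 and 0.95. Those most like Gzmb were Fam111a, the class I-like gene H2-T23 and the complement gene C1qa, with r of 0.97 each. These are the highest of 13101 genes compared, they share libraries and scaling with the members, and they are a description only.

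**Figure D3:**
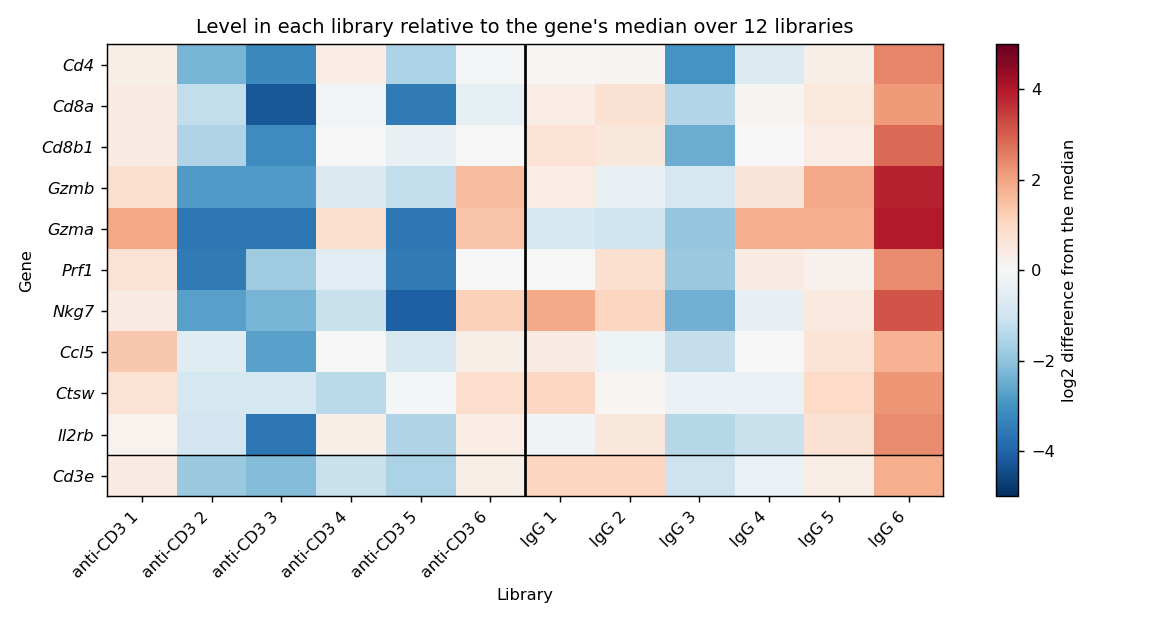
Level of each member and of Cd3e in each library, as the log2 difference (normalized count plus 0.5) from the gene's median over the 12 libraries. Anti-CD3 2, anti-CD3 3, anti-CD3 5 and IgG 3 are below the median in each row. Anti-CD3 1, IgG 5 and IgG 6 are above it in each row.

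Ratios to Cd3e ask whether a member differed beyond this T cell transcript. Cd3e (ENSMUSG00000032093) ran from 8.50 in anti-CD3 3 through a median of 15.5 to 52.3 in anti-CD3 1, against 19.1 in IgG 3, a median of 67.2 and 142 in IgG 6. Of the 6 anti-CD3 libraries, 4 lay below every IgG library. It was at -1.51 ± 0.54 (SE; edgeR adjusted p = 0.182) and rested on 7 to 36 counts per anti-CD3 library and 17 to 358 per IgG library. Relative to Cd3e, 0 of the 7 tested members passed limma at an adjusted p of 0.05 or at an unadjusted p under 0.05, where 30.7% of all genes passed and 62.1% were higher at an unadjusted p. The 30.7%, or 4028 genes, is not a stable figure, since it became 41 genes without anti-CD3 5, 52 without IgG 6 and 10488 without anti-CD3 1. Every gene has this denominator, and the median difference of all genes was 1.46. Negative differences, held by 0.366% of all genes, were found for 2 of the 7, Cd8a and Gzmb.

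Of the 10 members, Ccl5 had the largest difference per Cd3e, and it did not pass over all genes; whether it differed from the other members was not tested. The ratio of Ccl5 to Cd3e had a median of 9.55 in anti-CD3 (3.56 to 12.3) and 4.83 in IgG (2.07 to 6.51), and 4 of the 6 anti-CD3 libraries lay above every IgG library. The difference on the log2 scale was 0.86 ± 0.68 (limma SE, n = 6 per group; adjusted p = 0.229 over all genes; exact permutation p = 0.0476, 1 of 10 such tests). It was smaller than the median difference of all genes, 1.46, and 62.1% of all genes were higher at an unadjusted limma p under 0.05. The co-receptors were Cd4 at 0.54 ± 0.68, Cd8b1 at 0.41 ± 0.75 and Cd8a at -0.43 ± 0.69, and Ctsw and Il2rb were at 0.63 ± 0.73 and 0.47 ± 0.68 (limma SE; exact permutation p from 0.115 for Ctsw to 0.446 for Cd8a). Gzmb was at -0.30 ± 0.71 (limma SE; exact permutation p = 0.628). Its highest ratios were in IgG 6, at 2.15, and IgG 5, at 1.52, and without both of them the difference was 0.38. Nkg7 was at -0.58 ± 0.83, Prf1 at -0.27 ± 0.88 and Gzma at -0.25 ± 0.85 in the fit with no filter (limma SE; exact permutation p = 0.366, 0.610 and 0.712). Gzma per Cd3e split each group into 3 and 3 libraries, with log2 ratios from -1.56 to -0.78 in anti-CD3 1, 4 and 6 and from -4.73 to -4.17 in the other 3, against -1.25 to -0.57 in IgG 4, 5 and 6 and -4.74 to -3.59 in the other 3. Where a library had 0 counts, its ratio depends on the 0.5 added to each normalized count.

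**Figure D4:**
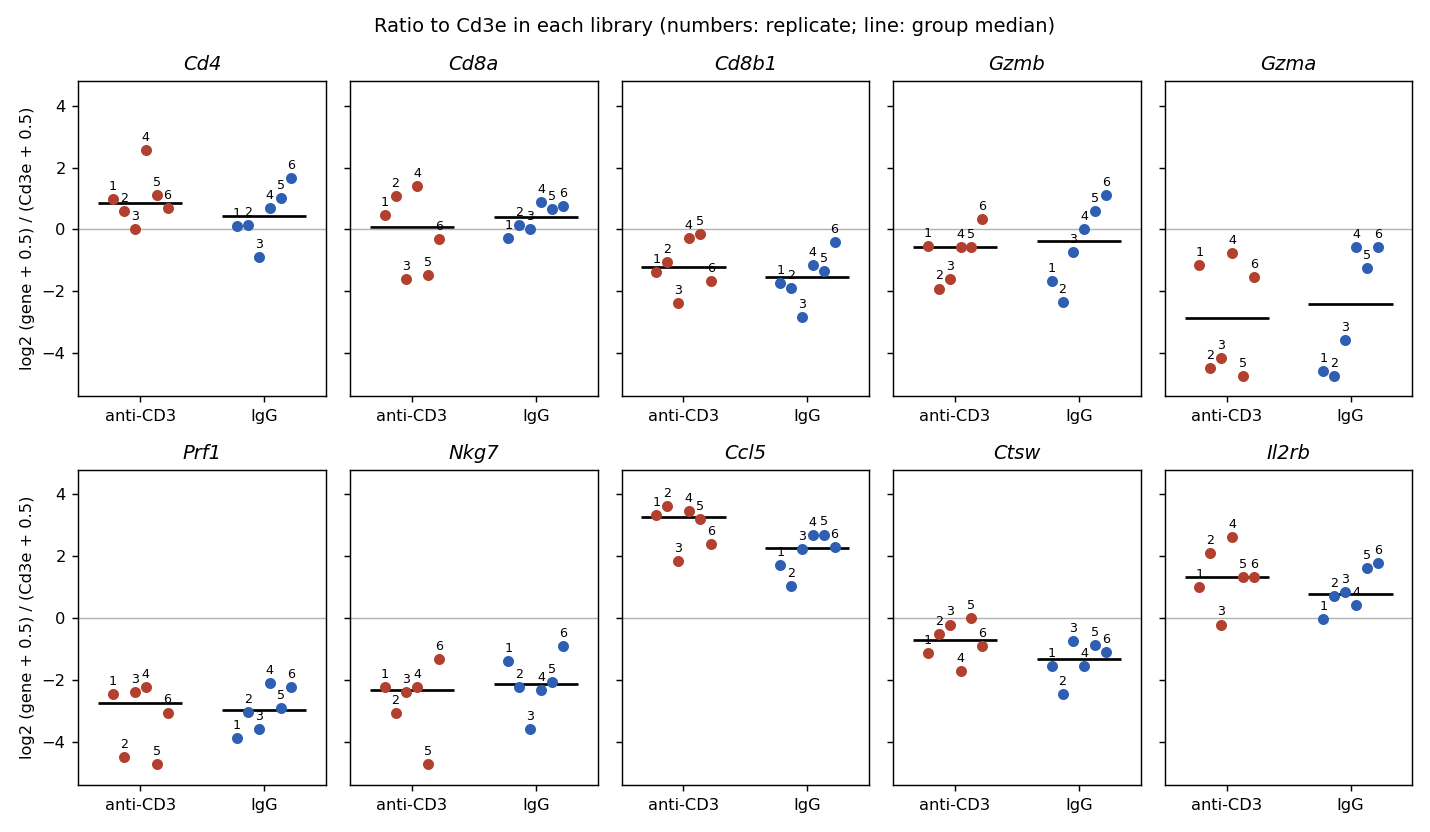
Log2 ratio of each member to Cd3e in each library, with 0.5 added to both normalized counts; points are libraries numbered by replicate and lines are group medians. Ccl5 shows 4 anti-CD3 libraries above the 6 IgG libraries, and Gzma, Prf1 and Nkg7 drop below -4 in libraries with 0 to 4 counts.

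Other denominators moved the ratios. By edgeR the partner chains Cd3d and Cd3g were at -0.91 ± 0.78 and -1.17 ± 0.77 (SE), and without IgG 6 they were at -0.08 and -0.50, against -1.17 for Cd3e. Whether the chains differed was not tested. With the mean of Cd3d, Cd3e and Cd3g as the denominator, Ccl5 was at 0.39 and Cd8a at -0.90, and with Ptprc, the common leukocyte antigen CD45, Ccl5 was at 0.37 and Cd8a at -0.93. With a T cell score, the mean log2 CPM of 13 CD3 and receptor genes, as a covariate in edgeR, Cd8a was at -0.81 ± 0.34, Gzmb at -0.77 ± 0.54, Ctsw at -0.41 ± 0.39, Cd8b1 at -0.24 ± 0.36, Il2rb at -0.15 ± 0.32, Ccl5 at 0.03 ± 0.26 and Cd4 at 0.07 ± 0.22 (SE). None passed over all genes (smallest edgeR adjusted p = 0.208, for Cd8a). In that fit Cd3e, itself part of the score, was at -0.87 ± 0.27 (SE; edgeR adjusted p = 0.0984).

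Among genes of the same pathways 0 passed over all genes with edgeR. An unadjusted p under 0.05 was held by 18.4% of all genes in either direction and by 8.68% as lower, so single genes past it are no result about a list. Of 12 other granule proteins matched, 4 passed the filter and Gzmk, another granzyme, was at -1.98 ± 0.85, or -1.27 without IgG 6 (SE; edgeR adjusted p = 0.241 with all libraries), the 1 lower at an unadjusted p. The median of the 4 was -0.37, or 0.10 without IgG 6. Gzmd, Gzme, Gzmf, Gzmg and Gzmn had 0 counts in every library, which need not mean absent RNA, since the handling of multi-mapped reads is not given. Of 9 genes of granule release, all tested, Vamp8, a fusion protein also found in acinar cells, was at 0.70 ± 0.20 and Lyst, a regulator of lysosome-related organelles, was at -0.47 ± 0.22 (SE; edgeR adjusted p = 0.112 and 0.272). The list's median was 0.0012, or 0.06 without IgG 6. Of 3 tested death ligands and cytokines, Tnfsf10, the death ligand TRAIL, was at -1.14 ± 0.51 (SE; edgeR adjusted p = 0.259), and the median of the 3 was -0.42, or -0.14 without IgG 6. None of 4 granzyme inhibitor genes was past an unadjusted p of 0.05. Serpinb6a, with the smallest p, was positive at 0.50 ± 0.23, or 0.36 without IgG 6 (SE; edgeR adjusted p = 0.273 with all libraries). Serpina3g was at -1.19 ± 0.89 and Serpinb9, which inhibits granzyme B, at -0.47 ± 0.50 (SE), or 0.12 and 0.13 without IgG 6. The median of the 4 was -0.25, or 0.24 without IgG 6.

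The medians of the regulator and receptor lists were closer to 0, or turned positive, without IgG 6. Of 11 tested transcription factor genes, 6 were negative, with a median of -0.29, or 0.06 without IgG 6, and 1 was lower at an unadjusted p, Runx1 at -0.66 ± 0.23 (SE; edgeR adjusted p = 0.160). Prdm1 was at -0.84 ± 0.40 and Zeb2 at -1.01 ± 0.50 (SE), or -0.50 and -0.39 without IgG 6. Of 10 tested genes of IL-2 and IL-15 signalling, the partners of Il2rb, 9 were negative, with a median of -0.63, or -0.24 without IgG 6. At an unadjusted p, Jak1 (-0.43 ± 0.18) and Stat5a (-0.92 ± 0.41, or -0.42 without IgG 6) were lower and Cish, a feedback inhibitor of cytokine signalling, was higher (0.39 ± 0.18; SE, edgeR adjusted p from 0.222 to 0.266). Of 5 tested CD4 and CD8 partners, the 5 were negative, with a median of -1.34, or -0.43 without IgG 6, and Lck, the kinase bound by both co-receptors, was at -1.37 ± 0.62, or -0.75 without IgG 6 (SE; edgeR adjusted p = 0.266 with all libraries). Of the 13 CD3 and receptor genes the 13 were negative, with a median of -1.17, or -0.38 without IgG 6, and Cd3e and Lck were lower at an unadjusted p.

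Summed marker levels of other cell types, some of which can hold these transcripts, were also highest in IgG 6. NK cells use the same granule genes. Of 13 NK genes 4 passed the filter, 0 passed edgeR, and their summed level ran from 54.6 to 374 normalized counts in anti-CD3 and from 50.6 to 888 in IgG (289 without IgG 6). Klrb1c had 0 counts in anti-CD3 and 8 in IgG, all in IgG 6, and Ncr1 had 2 counts in anti-CD3 and 37 in IgG, 30 of them in IgG 6. Some mouse dendritic cells express Cd8a or Cd4. Of 8 dendritic cell genes 5 were tested, 1 was lower at an unadjusted p (Itgax, at -1.60 ± 0.57, SE, or -1.01 without IgG 6), and the sum ran from 112 to 303 in anti-CD3 and from 124 to 752 in IgG (306 without IgG 6). Siglech and Xcr1 peaked in anti-CD3, at 48.7 and 21.6, against 43.7 and 20.6 in IgG. Of 7 macrophage genes, tested throughout, Csf1r was lower at an unadjusted p (-1.15 ± 0.51, SE, or -0.59 without IgG 6), and the sum ran from 312 to 1511 in anti-CD3 and from 481 to 3714 in IgG (1213 without IgG 6). Of 6 B cell genes, 5 tested, none was past an unadjusted p of 0.05, and the sum ran from 10.9 to 397 in anti-CD3 and from 30.4 to 1864 in IgG (383 without IgG 6).

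Of 8 lymph node genes, 4 tested with none past an unadjusted p of 0.05, the sum ran from 146 to 1413 in anti-CD3 and from 141 to 5117 in IgG (1463 without IgG 6). Glycam1, a gene of high endothelial venules, had 122 counts in anti-CD3 and 2302 in IgG, 2228 of them in IgG 6, while Ccl21a had 0 counts throughout. The handling of multi-mapped reads is not given, so a count of 0 need not mean absent RNA. Of 6 mast cell genes 1 was tested, Kit at -0.38 ± 0.31 (SE), or -0.085 without IgG 6. The sum of the list ran from 53.4 to 162 in anti-CD3 and from 104 to 293 in IgG. Kit made up 290 of the 293 in IgG 6. Cpa3 had 25 counts in each group, 1 of them in IgG 6. Mcpt4, Cma1 and Tpsb2 had 0 counts in anti-CD3 and 7, 4 and 5 in IgG, and Fcer1a had 0 counts. The part of these cell types and of lymphoid tissue in the levels of the 10 members was not tested. With the acinar score as a covariate, 2 of the 7 tested members kept negative values, Cd8a at -0.56 and Ctsw at -0.01, and Gzmb was at 0.23.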

How the data were processed

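RNA was sequenced as read pairs from 6 anti-CD3 and 6 IgG libraries. The processing notes of the submitters name Trimmomatic 0.36, STAR 2.5.2b, featureCounts of Subread 1.5.2, DESeq2 and GRCm38. Not given in the sources used here were the strand setting, the annotation release and the handling of multi-mapped reads. The deposited counts are whole numbers per Ensembl gene, whose totals the report gives. The deposited normalized signal equals those counts divided by 1 size factor per library, and the authors' table also holds log2 fold changes and p-values, with the adjusted p NA for 2935 genes. Columns were matched to samples by group and number, 1 count column carrying an unexplained prefix. Coordinates and transcript lengths are from GENCODE M21 (GRCm38), promoters from RefSeq (GRCm38.p6).

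The 10 members, the 17 gene lists (1 of which is not reported here) and the alternatives were chosen with earlier results of these data known. Counts were tested with edgeR 4.0.16 in R 4.3.3 (filterByExpr, minimum count 10, minimum total 15; TMM factors from 0.733 to 2.36; robust quasi-likelihood F test; Benjamini-Hochberg over 13115 genes). Ratios to Cd3e were log2 values with a pseudocount of 0.5, tested with limma 3.58.1 over 13114 genes. Single ratios also had a two-sided exact permutation test of all 924 regroupings (smallest p 0.00216). Named list genes were mostly up to 3 per list with the smallest p, and genes at or near 0. Ins2, Glycam1 and the genes used as denominators were named outside that rule. Ctsw shares 9 exonic bases with Fibp, on the opposite strand, and Cd3e 135 with an antisense gene of 19 counts in all. Alternatives were DESeq2 1.42.0, limma-voom, other factors and filters, covariates, the replicate block, other denominators and omitted libraries. The procedure was tested on simulated data.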

Additional observations from a re-analysis of the deposited data

Results flagged for a closer look

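In groups of 6, the gap between the extreme library and its nearest neighbour, divided by the group's range, was compared with Dixon's critical value at 95%. Among 56 groups of levels and ratios 8 exceeded it, and the 8 were all normalized counts of IgG 6. Chance flags about 1 in 20 only where groups are independent and normally distributed. The 8 share 1 library, in genes often high and low together, so they are not separate results. They were 454 for Cd4, 239 for Cd8a, 107 for Cd8b1, 306 for Gzmb, 95.3 for Gzma, 29.8 for Prf1, 66.3 for Ctsw and 485 for Il2rb. The levels were examined untransformed and the ratios on the log2 scale, where no ratio to Cd3e and no ratio between members exceeded the value. The 2 scales differ, so levels and ratios cannot be compared in this respect. Untransformed, the ratio of Cd8b1 to Cd8a was 2.49 in anti-CD3 5, against 0.231 to 0.585 in the other anti-CD3 libraries.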

How the results depend on the processing

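Under every alternative run, 0 members passed over all genes, by fold change or relative to Cd3e. The filtered fits held 6 to 9 of the 10 members, and Prf1 was in none of them. DESeq2 gave no adjusted p for Cd8b1 and Ctsw. The number of all genes called, 10 in the main test, was 468 with DESeq2, 135 with limma-voom, 6 with upper-quartile factors, 167 with no filter, 160 with the T cell score as a covariate, 1 without IgG 5 and IgG 6, 0 with the acinar score and 0 with a block for the replicate number. With any 1 library omitted it was 0 to 203. Of the fold changes of members and Cd3e, 184 kept their direction and 8 did not. Those were, with the acinar score, Cd4 (0.52), Cd8b1 (0.045), Gzmb (0.23), Ccl5 (0.44) and Il2rb (0.43), with the T cell score, Cd4 (0.066) and Ccl5 (0.032), and without IgG 5 and IgG 6, Ccl5 (0.15). Relative to Cd3e, 147 kept their direction and 9 did not. With Ptprc as denominator Cd8b1 was at -0.087 and Il2rb at -0.019, and with the mean of 3 CD3 genes Cd8b1 was at -0.065. Without IgG 5 and IgG 6, Gzmb was at 0.38. With 1 library left out, Gzmb ranged from -0.67 to 0.021 (without IgG 6) and Gzma from -0.69 to 0.13, or 0.14 in the fit with no filter and without IgG 6. The number of all genes that passed relative to Cd3e, 4028, was 5 with Ptprc, 7 with the CD3 mean, 7 with Trac, 179 with no filter, 11429 with the block and 41 to 10488 with 1 library omitted. The cause of these shifts was not tested.

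The labels do not say whether the replicate numbers pair the samples, and the values below do not settle it. The correlation of same-numbered libraries, as deviations from their group means, ran from -0.29 to 0.55, and 2 of 6 anti-CD3 libraries correlated best with their own number. With the replicate block, Gzmb was at -1.78 ± 0.44 (SE; edgeR adjusted p = 0.111), beside an SE of 0.94 without the block. Ccl5 relative to Cd3e was then at 0.86 and did not pass (limma adjusted p = 0.0509). In that same block fit 11429 genes did pass relative to Cd3e, so the value does not set Ccl5 apart from other genes. Low counts limit what can be said of Gzma, Prf1 and Nkg7.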
